A study of Homo sapiens with 4 samples.

Results

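The enzymes studied here build triglyceride from glycerol-3-phosphate in HK2 cells, a human proximal tubule cell line. The group holds 10 genes chosen by their place in that pathway: GPAM, GPAT3, AGPAT1, AGPAT2, AGPAT3, LPIN1, LPIN2, LPIN3, DGAT1 and DGAT2. They are 10 of the 58288 genes in the RNA-seq tables, and were matched by gene name. Of the HIF1α ChIP-seq peaks, 1 of 1689 in replicate 1 and 14 of 16953 in replicate 2 lay on a member. All cells had received 50 µM FG-4592, an inhibitor of the prolyl hydroxylases that mark HIF1α for breakdown, for 6 h in the RNA-seq experiment. The paper states that the ChIP-seq cells had the same treatment condition. The samples used here were 2 replicates each of RNA-seq and ChIP-seq, all treated. Untreated cells were not analysed here, so every value below is a level under the drug, given without a test. The transcript coverage of the RNA-seq libraries summed to 4442 and 4202 Mb. In such bulk libraries, fewer cells with a transcript and less of it per cell cannot be told apart.

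The cells carried some marker transcripts of kidney epithelium and had little or none of others. PAX8, a transcription factor of the kidney lineage, stood at 121 and 114 FPKM (fragments per kilobase of transcript, scaled to library size) in replicates 1 and 2. The epithelial keratin KRT8 stood at 166 and 162 FPKM. Of the proximal tubule markers, GGT1 stood at 62.3 and 58.5 FPKM (35.3% and 35.8% of it from protein-coding transcripts), but LRP2 was at 0 and CUBN, SLC34A1, AQP1 and ANPEP were below 0.1 FPKM in both libraries. The kidney epithelial genes PAX2 and CDH1 were below 0.5 FPKM. Markers of fat cells (ADIPOQ), hepatocytes (APOB), leukocytes (PTPRC) and endothelium (PECAM1) were listed at 0 FPKM in both. PLIN1, CIDEC and ALB were below 0.1 FPKM, the fibroblast marker PDGFRB was at 0.490 FPKM in each library, and the collagen gene COL1A1 at 38.7 FPKM in each.

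In the glycerol phosphate pathway, GPAM and GPAT3 add the first fatty acid to glycerol-3-phosphate, and the AGPAT enzymes add the second to give phosphatidate. The lipins remove the phosphate to give diacylglycerol, and DGAT1 and DGAT2 add the third fatty acid to give triglyceride. HIF1α binds DNA at a short response element core, searched here as ACGTG or GCGTG on both strands (CACGT or CACGC on the strand shown), so that CACGTG counts once on each strand.

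All 10 members were expressed, with a mean of at least 1 FPKM, a level that 59.6% of 19659 protein-coding genes reached. Their median was 11.2 FPKM in replicate 1 and 12.2 FPKM in replicate 2 (11.8 for the means of the 2 libraries). The median of the 11726 protein-coding genes at 1 FPKM or more was 10.8 FPKM, so the group sat near the middle of the expressed genes. AGPAT2 was the highest member and DGAT2 the lowest, with 87.5% and 38.2% of all expressed genes below them.

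From high to low the order was AGPAT2, AGPAT1, LPIN3, LPIN2, GPAM, AGPAT3, DGAT1, LPIN1, GPAT3 and DGAT2. The libraries of neighbours overlapped for LPIN3 and LPIN2, for GPAM and AGPAT3, and for AGPAT3 and DGAT1. All other neighbours were separate in both libraries. Every step of the pathway, from the first acylation to the last, had at least 1 enzyme above 10 FPKM in both libraries. On protein-coding transcripts the last step did not, with DGAT1 at 8.27 and 7.94 FPKM and DGAT2 at 5.38 and 6.07 FPKM.

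**Figure D1:**
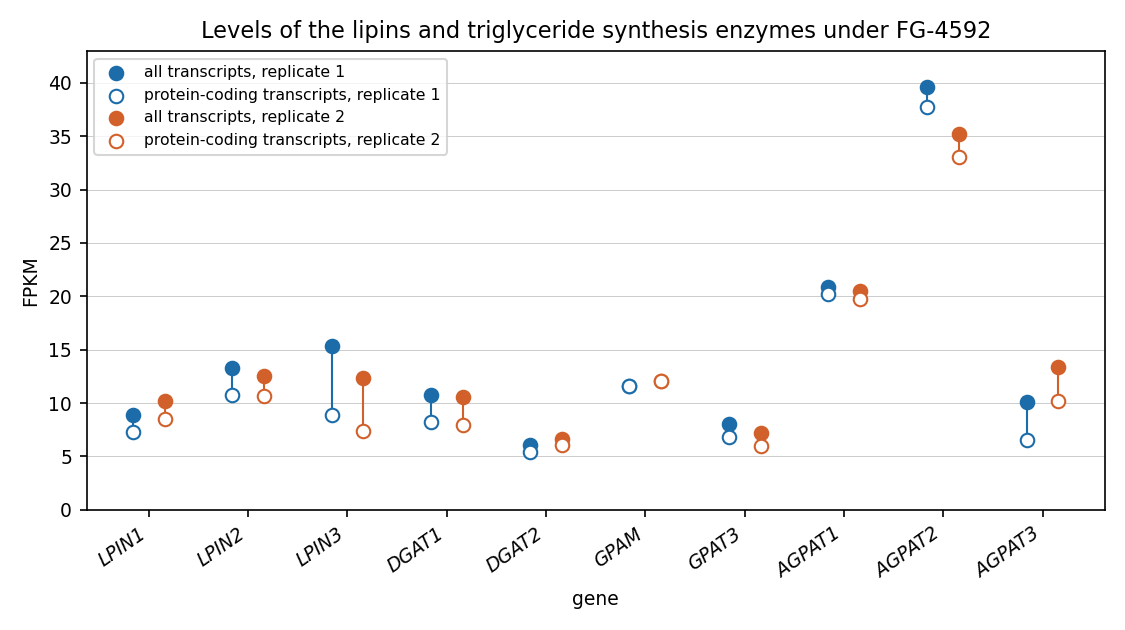
Level of each member in FPKM in the 2 RNA-seq libraries, with filled points for all transcripts of a gene and open points for protein-coding transcripts only. AGPAT2 is the highest at 39.6 and 35.2 FPKM, and the open points of LPIN3 lie well below its filled points.

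Between the libraries the members differed little. Replicate 2 was compared with replicate 1 as a log2 ratio of levels, each with 1 FPKM added. Its median over the 10 genes was -0.024, and the median of its absolute value was 0.13 against 0.12 for expressed protein-coding genes. No member differed more than 2-fold, a difference that 1.15% of 13467 expressed genes had. Single transcripts were less even. Of 27 member transcripts with a mean of at least 1 FPKM, 7 differed more than 2-fold between the libraries, with 1 FPKM added to each level, where 13.2% of 30664 transcripts did. All 7 were transcripts of AGPAT1, AGPAT3 or DGAT2, so they are not independent of each other.

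The 2 HIF1α peak lists differ in kind, and the results are given for each. The replicate 2 list is 10 times as long and mostly exonic: 84.5% of its bases lie in exons, against 32.9% in replicate 1. A core was present in 89.3% of replicate 1 peaks and in 48.8% of replicate 2 peaks. Only 344 replicate 1 peaks (20.4%) met a replicate 2 peak.

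GPAM (ENSG00000119927, chr10:113909623-113975135, GRCh37), the glycerol-3-phosphate acyltransferase of mitochondria, stood at 11.6 and 12.1 FPKM in replicates 1 and 2 (mean ± SD 11.8 ± 0.338, n = 2). It was made almost wholly as 1 transcript, ENST00000348367, which gave 98.1% and 97.4% of the gene. All GPAM transcripts with any signal began 31614 bp downstream of the outermost annotated start. The RefSeq promoter of this downstream start holds 4 cores within the 250 bases before it, all read as CACGC, at positions -203, -136, -95 and -25. No HIF1α peak was near: the closest lay 1685337 bp away in replicate 1 and 1030961 bp away in replicate 2.

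GPAT3 (ENSG00000138678, chr4:84457067-84527028), which does the same step in the endoplasmic reticulum, was lower at 8.01 and 7.16 FPKM (7.58 ± 0.60, n = 2). The log2 ratio of GPAT3 to GPAM was -0.48 and -0.68 in the 2 libraries (-0.58 ± 0.14, n = 2). ENST00000264409 gave 4.05 and 3.64 FPKM of GPAT3. Of its other transcripts, ENST00000395226 stood at 0.842 and 2.31 FPKM, and ENST00000611707 at 1.92 FPKM in replicate 1 and 0 in replicate 2. The nearest peaks to a GPAT3 start lay 200654 bp away in replicate 1 and 73606 bp away in replicate 2, and its RefSeq promoter held no core.

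AGPAT2 (ENSG00000169692, chr9:139567595-139581909), the acyltransferase mutated in a form of congenital lipodystrophy, was the most abundant member at 39.6 and 35.2 FPKM (37.4 ± 3.10, n = 2). Its 2 main transcripts stood close together, ENST00000371696 at 20.7 and 18.5 FPKM and ENST00000371694 at 17.0 and 14.5 FPKM. AGPAT1 (ENSG00000204310, chr6:32135989-32145873), which does the same step, stood at 20.9 and 20.5 FPKM (20.7 ± 0.272, n = 2). AGPAT3 (ENSG00000160216, chr21:45285104-45407473) stood at 10.1 and 13.4 FPKM (11.8 ± 2.28, n = 2). The 3 enzymes were separate in both libraries. The log2 ratio of AGPAT2 to AGPAT1 was 0.89 and 0.75 (0.82 ± 0.099, n = 2). That of AGPAT3 to AGPAT1 was -0.97 and -0.58 (-0.78 ± 0.28, n = 2).

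The estimated mixture of transcripts of AGPAT1 and of AGPAT3 differed between the 2 libraries. AGPAT3 also had the largest log2 ratio between libraries of the 10 members, 0.37. Transcript levels are StringTie estimates, and how reads shared by several transcripts were divided was not tested. The main AGPAT1 transcript, ENST00000375107, gave 9.90 FPKM or 47.4% of the gene in replicate 1, and 18.7 FPKM or 91.3% in replicate 2. Of the 7 transcripts counted above as over 2-fold apart, 4 were AGPAT1 transcripts higher in replicate 1, among them ENST00000375104 at 2.76 and 0 FPKM. In AGPAT3, ENST00000291572, from the outermost start, gave 50.9% of the gene in replicate 1 and 27.6% in replicate 2. AGPAT3 ENST00000398061 stood at 0.187 and 3.59 FPKM, and ENST00000327505 at 0.186 and 2.51 FPKM. The remaining transcript of the 7 was DGAT2 ENST00000376262, at 0.471 and 2.13 FPKM. The nearest peaks to an AGPAT1 start lay 986465 bp away in replicate 1 and 2181 bp away in replicate 2, and those to an AGPAT3 start 136401 and 8921 bp away. In replicate 2 the nearest peak to an AGPAT2 start lay 3494 bp away.

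**Figure D2:**
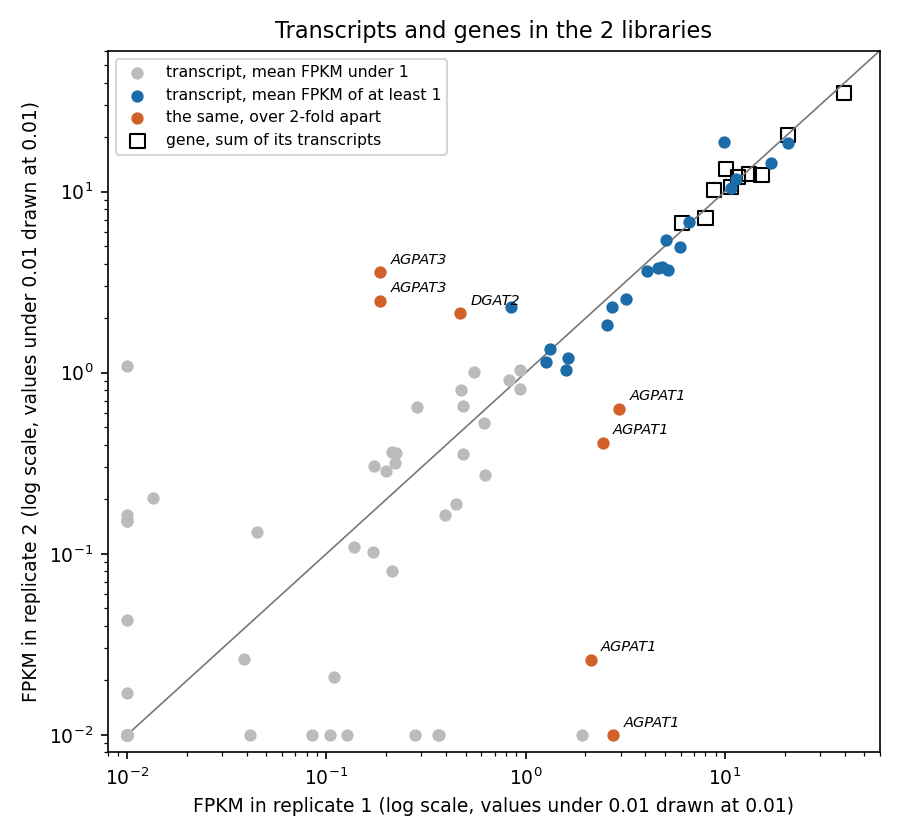
FPKM of each member transcript in replicate 1 against replicate 2, both axes on a log scale, with squares for whole genes and orange points for the 7 transcripts over 2-fold apart once 1 FPKM is added, with a mean of at least 1 FPKM. The genes lie along the line of equal values, and the orange points are of AGPAT1, AGPAT3 and DGAT2.

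LPIN3 (ENSG00000132793, chr20:39969461-39989222) had the highest mean of the lipins by summed level, at 15.3 and 12.4 FPKM (13.8 ± 2.08, n = 2). LPIN2 (ENSG00000101577, chr18:2885294-3013142), the lipin mutated in Majeed syndrome, stood at 13.3 and 12.5 FPKM (12.9 ± 0.542, n = 2). LPIN1 (ENSG00000134324, chr2:11817721-11967535), the lipin whose loss causes recurrent muscle breakdown in children, was the lowest at 8.85 and 10.2 FPKM (9.51 ± 0.934, n = 2). The log2 ratio of LPIN2 to LPIN1 was 0.54 and 0.28 in the 2 libraries (0.41 ± 0.18, n = 2). LPIN3 was above LPIN2 in replicate 1 and just below it in replicate 2, and LPIN1 was below both in each library. The log2 ratio of LPIN3 to LPIN1 was 0.73 and 0.26 (0.49 ± 0.33, n = 2).

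The place of LPIN3 among the lipins rested on transcripts not classed as protein-coding in the GENCODE 44 annotation, which leaves out any transcript it does not list, such as ENST00000584294 of LPIN2. Its full-length transcript ENST00000373257 stood at 5.95 and 4.94 FPKM. The short ENST00000491528, from the 3′ part of the gene and with no coding sequence defined in the annotation, stood at 4.82 and 3.82 FPKM. Counting transcripts classed as protein-coding, LPIN3 stood at 8.85 and 7.34 FPKM, or 57.8% and 59.4% of its total. The log2 ratio to LPIN1 on these was 0.25 and -0.19, so LPIN3 was above LPIN1 in replicate 1 and below it in replicate 2. On protein-coding transcripts LPIN3 moved from place 3 to place 7 of the members, and LPIN2 became the most abundant lipin at 10.7 FPKM in each library.

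Coverage along LPIN3 ENST00000373257 also differed between its ends. All of its 20 exons had reads in both libraries, and exon 1 had a mean depth per base of 79.7 and 67.4. The last exon had a depth of 5.79 and 6.67, against a median of 56.5 and 42.6 over the other exons. Starts within 1 kb of the outermost LPIN3 start carried 56.7% and 58.5% of its summed FPKM. Starts around 16191 bp downstream carried 42.2% and 40.6%. The latter belong to ENST00000491528 and ENST00000496565, of 652 and 568 bases and with no coding sequence defined. ENST00000373257 is 4363 bases long. Since FPKM is per length, these are not shares of reads. Whether transcription starts there was not tested.

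LPIN3 was the only member with a promoter peak, within 1 kb of a start, in replicate 1, where 5.49% of 19659 protein-coding genes had one. In replicate 2 the members with one were LPIN3 and DGAT1, where 14.0% of genes had one. LPIN3 had one in each replicate, as 1.79% of genes did, but its 2 peaks did not overlap. Without replicate 2 the count for the members is therefore 1 of 10, and without replicate 1 it is 2 of 10.

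The LPIN3 peak of replicate 1 is 367 bp wide and holds 1 core, 4 bp from its centre. Of 1661 replicate 1 peaks searched, 817 (49.2%) had a core within 20 bp of the centre, and 402 (24.2%) had exactly 1 core. The LPIN3 core lies in the non-coding part of exon 1 of ENST00000373257, 126 bp downstream of the start at 39969461 and 25 bp upstream of a second start at 39969612, in GENCODE 44. That annotation begins exon 1 further upstream than the RNA-seq tables, in which exon 1 is 83 bases long. The core is shown as the only one of the only promoter peak on a member in replicate 1. Capitals mark the core; the window is chr20:39969575-39969603, GRCh37, minus strand, 5′ to 3′.
LPIN3 core: ccgcctctacctACGTGcacaggctccac

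The parts of the same LPIN3 peak on either side of exon 1 hold no core and are shown to mark its edges. They are chr20:39969410-39969460 before the start and chr20:39969643-39969776 in intron 1, GRCh37, plus strand, 5′ to 3′, with no capitals since no core is present.
LPIN3 before the start: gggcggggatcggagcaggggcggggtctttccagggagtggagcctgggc
LPIN3 intron 1: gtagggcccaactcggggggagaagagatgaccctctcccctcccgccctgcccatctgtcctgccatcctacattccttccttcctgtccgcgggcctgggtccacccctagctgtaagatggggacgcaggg

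The LPIN3 peak of replicate 2 lies at the other end of the gene, with its centre 85.0% of the way along it. It is wholly intronic, 235 bp from the start of a short 3′ transcript, and is the only replicate 2 peak on a member that is not mostly exonic. It is shown since it places LPIN3 in both counts without a core; chr20:39986155-39986381, GRCh37, plus strand, 5′ to 3′, no capitals.
LPIN3 replicate 2 peak: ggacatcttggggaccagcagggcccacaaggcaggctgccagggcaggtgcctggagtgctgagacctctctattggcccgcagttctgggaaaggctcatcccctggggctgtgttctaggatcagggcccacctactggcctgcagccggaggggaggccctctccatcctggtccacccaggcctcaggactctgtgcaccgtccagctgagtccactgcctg

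**Figure D3:**
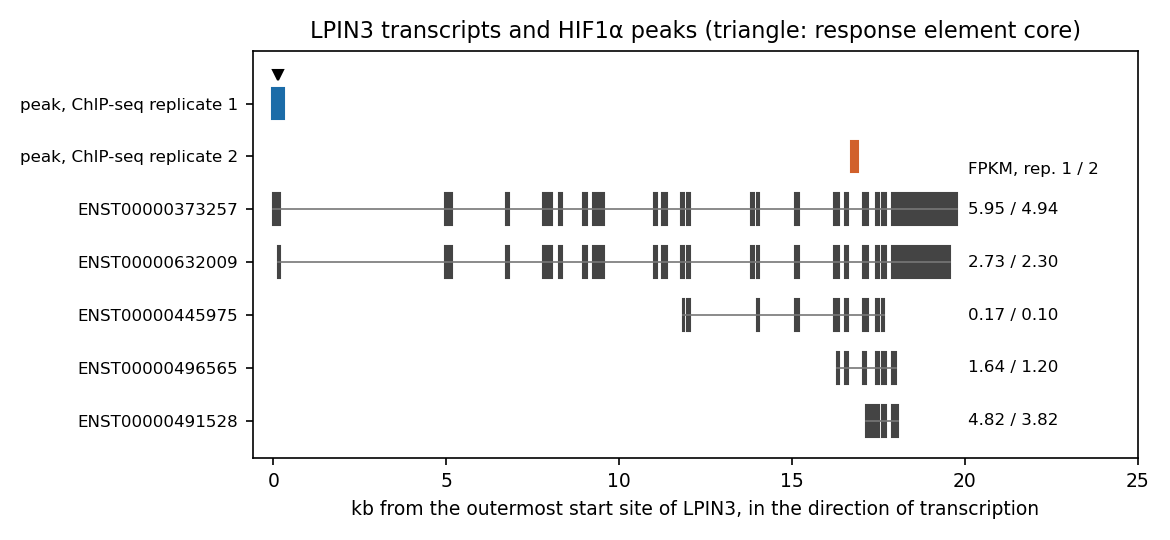
LPIN3 transcripts drawn as exons in kb from the outermost start, with each transcript's FPKM in replicates 1 and 2 at the right. The replicate 1 peak, with its core as a triangle, is at exon 1, and the replicate 2 peak is in an intron near the 3′ end.

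LPIN1 was read mainly from an internal start. The start group 68993 bp downstream of the outermost start carried 78.2% and 73.2% of LPIN1, and the outermost start was at 0 FPKM in both libraries. A start group between them carried 4.14% and 12.4%. The nearest peak to any LPIN1 start lay 495432 bp away in replicate 1 and 893286 bp away in replicate 2. The 250 bases before the RefSeq start of the most used LPIN1 start group, 11746632, hold no core, where 43.2% of all 35116 RefSeq promoters hold one. A CACGC begins at position 22 after that start. In the RNA-seq tables the group begins at 11746588 (GRCh38), within these 250 bases. The bases are shown as the RefSeq promoter of that start group: chr2:11746382-11746631, GRCh38, plus strand, 5′ to 3′, no capitals.
LPIN1 main promoter: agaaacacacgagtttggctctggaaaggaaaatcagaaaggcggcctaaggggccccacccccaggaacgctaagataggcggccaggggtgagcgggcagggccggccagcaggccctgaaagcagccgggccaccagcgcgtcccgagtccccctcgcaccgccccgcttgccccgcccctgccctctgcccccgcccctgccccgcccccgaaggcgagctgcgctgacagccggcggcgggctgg

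The start of the main LPIN2 transcript depends on the annotation. ENST00000261596 carried 10.7 and 10.5 FPKM, or 80.6% and 84.1% of LPIN2, and begins at 3011947 (GRCh38) in the RNA-seq tables but at the outermost start, 3013142 (GRCh37), in GENCODE 44. ENST00000584294, which GENCODE 44 does not list, carried 2.58 and 1.83 FPKM from the outer start. LPIN2 levels were therefore not divided between its 2 RefSeq promoters. The inner promoter holds no core, and the outer promoter holds the palindrome CACGTG, a core on each strand, beginning at position -210 from the start. The outer promoter is shown as the only one of a lipin with CACGTG in the promoter table; capitals mark it. It is chr18:3013145-3013394, GRCh38, minus strand, 5′ to 3′. No peak of either replicate lay within 10 kb of an LPIN2 start, and the nearest were 758258 bp away in replicate 1 and 11374 bp away in replicate 2.
LPIN2 outer promoter: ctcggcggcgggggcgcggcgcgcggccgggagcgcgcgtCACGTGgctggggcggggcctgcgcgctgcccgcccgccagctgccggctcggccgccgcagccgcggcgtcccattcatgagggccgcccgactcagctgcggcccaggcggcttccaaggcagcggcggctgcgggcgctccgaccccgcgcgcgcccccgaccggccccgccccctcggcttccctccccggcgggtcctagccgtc

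DGAT1 (ENSG00000185000), which makes triglyceride in the endoplasmic reticulum and also forms retinyl esters, stood at 10.7 and 10.6 FPKM (10.7 ± 0.128, n = 2). DGAT2 (ENSG00000062282, chr11:75470557-75512580), which works at the surface of lipid droplets as well, stood at 6.07 and 6.68 FPKM (6.38 ± 0.430, n = 2). The log2 ratio of DGAT2 to DGAT1 was -0.73 and -0.59 in the 2 libraries (-0.66 ± 0.10, n = 2). DGAT2 was read from a start 9019 bp downstream of its outermost start, which carried 96.0% and 93.7% of the gene.

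The DGAT1 promoter peak of replicate 2 lay at the far end of the gene. Its centre is at 101.5% of the gene length, past the last DGAT1 base, and all of it lies in exons, among them exons of the neighbour HSF1. The start it is near, 458 bp away, belongs to a short internal transcript at 0 FPKM in both libraries. The peak holds no core. Replicate 1 had no peak closer than 152953 bp to a DGAT1 start, and 197047 bp to a DGAT2 start.

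Replicate 2 peaks on the members lay mostly in exons. Of the 14 peaks on members, 13 were mostly exonic, where 79.5% of all replicate 2 peaks were, and 10 touched a 3′ untranslated region, where 44.2% of all did. A core was present in 9 of the 14, where 48.8% of all replicate 2 peaks held one. The widest of the 14 was 1872 bp, against a median of 404 bp for all, and widths were not matched. The members with a peak in a 3′ untranslated region were AGPAT1, AGPAT2, AGPAT3, DGAT1, DGAT2 and LPIN2, 6 of 10, where 43.2% of 11674 expressed protein-coding genes had one. No member had one in replicate 1.

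The share of genes with such a 3′ peak followed their level in the RNA-seq libraries. It was 6.92% of genes below 1 FPKM, 17.5% from 1 to 5 FPKM, 49.1% from 5 to 50 FPKM and 69.8% at 50 FPKM or more. All 10 members lie between 5 and 50 FPKM. In replicate 1 the share was 0.263% at 5 to 50 FPKM.

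AGPAT3 had 3 of these peaks, at chr21:45402229-45402908, chr21:45403143-45404448 and chr21:45405303-45406137 (GRCh37), with 2, 4 and 5 cores. LPIN2 also had 3 in its 3′ untranslated region, between 2917910 and 2920030 on chromosome 18. Another 3 replicate 2 peaks within LPIN2 lay over exons of other genes, 2 of them EMILIN2 and 1 the pseudogene CHORDC1P4. Around AGPAT1, 4 replicate 2 peaks off the gene lay over exons of PPT2, EGFL8, RNF5 and PBX2.

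**Figure D4:**
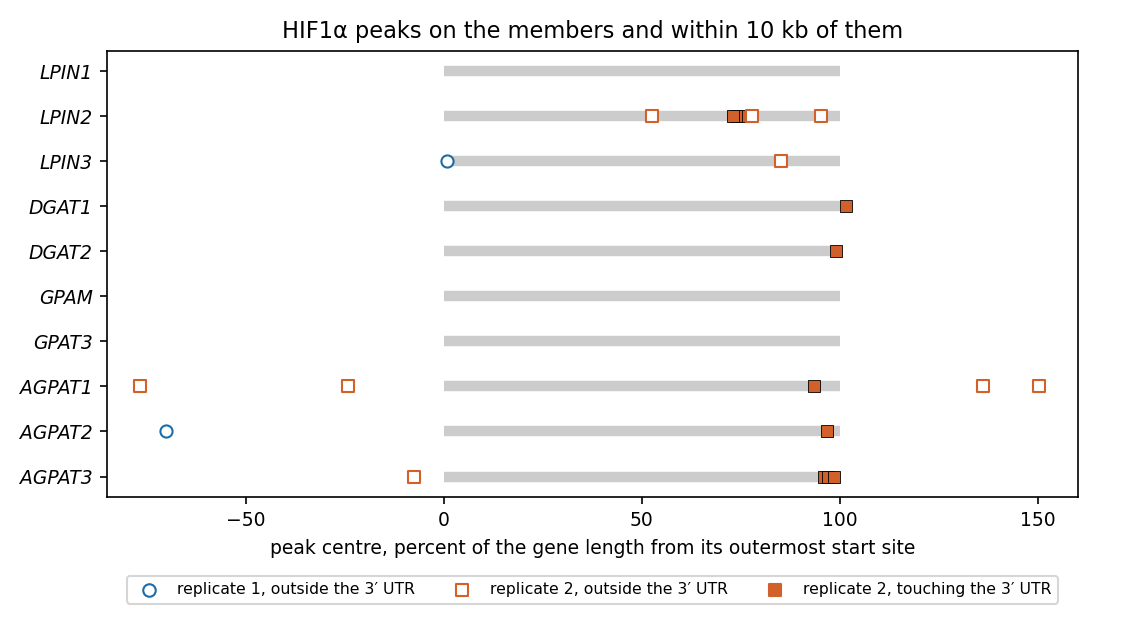
Centre of each HIF1α peak on a member or within 10 kb of it, in percent of the gene length from its outermost start, with circles for replicate 1 and squares for replicate 2. Filled squares touch a 3′ untranslated region and lie between 93.5% and 101.5% in 5 members and around 73.8% in LPIN2.

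Cores in sequence alone set the members apart little. Within 1 kb of the outermost start, the members held from 1 core (DGAT2) to 12 (LPIN2), where the median of all protein-coding genes was 5 and 95.2% held at least 1. Of 16 RefSeq promoters of 7 members, 7 (43.8%) held a core in 300 bases, against 48.4% of all 35116. LPIN3, DGAT1 and DGAT2 had no promoter in that table under their names.

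The wider pathway list held 32 further genes of glycerolipid synthesis and breakdown, of which 26 reached 1 FPKM. The median over all 32 genes, expressed or not, was 8.19 FPKM. The 6 below 1 FPKM were MOGAT1, MOGAT2, MOGAT3, PLPP3, GPD1 and ACSL6. The 3 monoacylglycerol acyltransferases, which feed diacylglycerol by a second route, stood at 0 FPKM in both libraries for MOGAT1 and MOGAT2, and at 0 and 0.040 FPKM for MOGAT3. GPD1, which makes glycerol-3-phosphate, stood at 0.145 and 0.304 FPKM, and its relative GPD1L at 1.81 and 2.33 FPKM.

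The lipin activator CTDNEP1, a phosphatase that removes phosphate from lipins, stood at 27.1 and 27.8 FPKM. On the side of breakdown, the triglyceride lipase PNPLA2 was at 42.7 and 36.9 FPKM, above every member in replicates 1 and 2. On protein-coding transcripts PNPLA2, at 32.6 and 29.5 FPKM, was below AGPAT2, at 37.8 and 33.0 FPKM. Its activator ABHD5 was at 18.0 and 18.4 FPKM, and the hormone-sensitive lipase LIPE at 1.44 and 1.31 FPKM. The lipid droplet coat protein PLIN2, counted with the HIF1 reference genes, was at 200.1 and 204 FPKM.

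**Figure D5:**
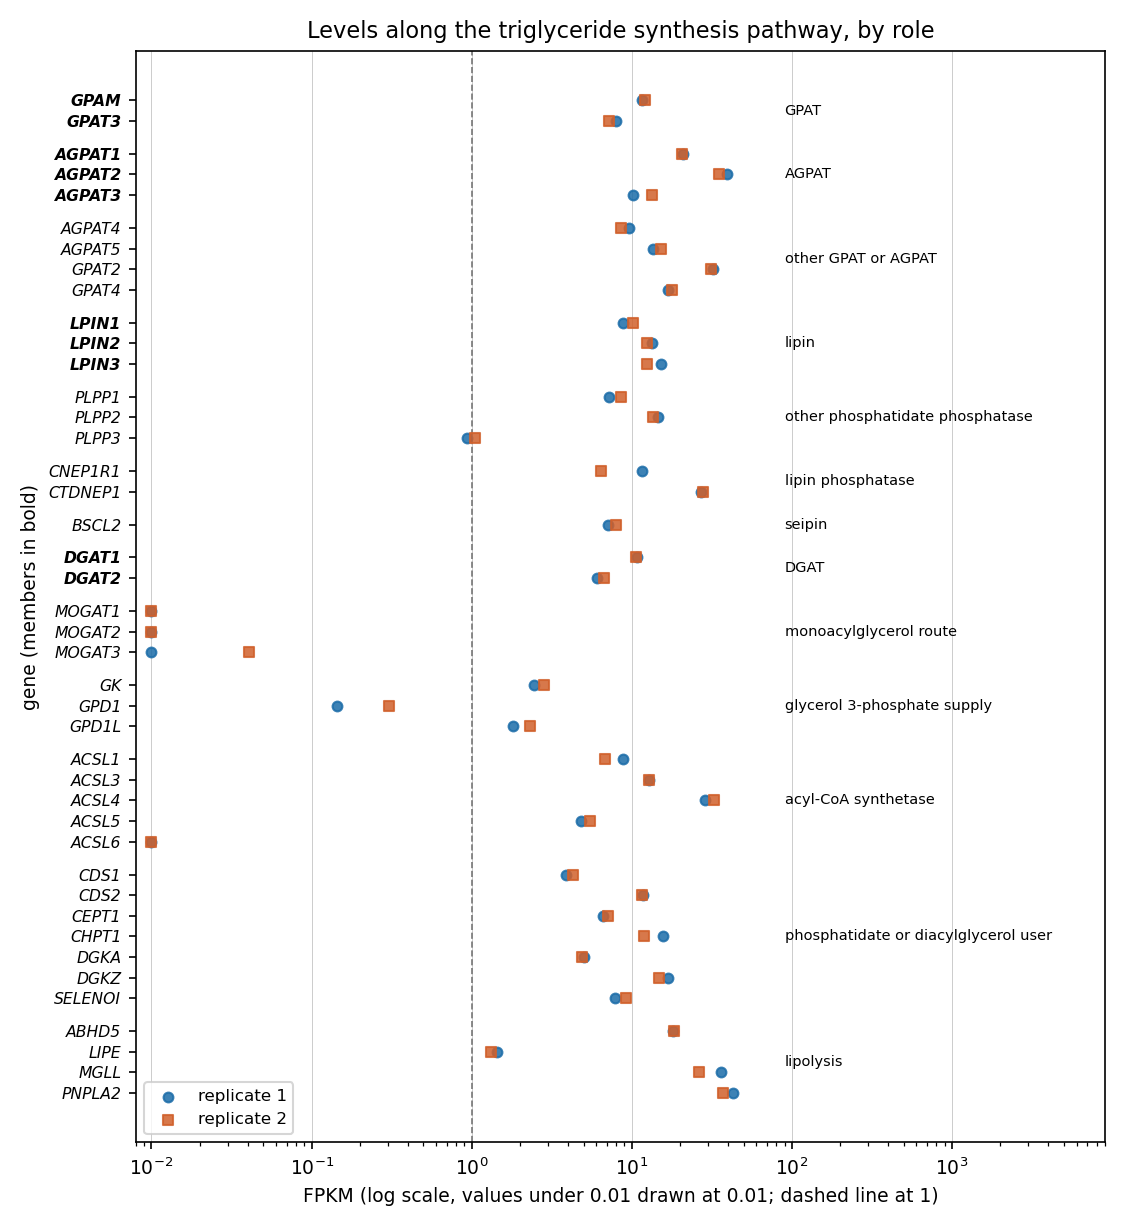
FPKM of the members and the 32 wider pathway genes on a log scale, by role, in replicates 1 and 2, with a dashed line at 1 FPKM. PNPLA2 is the highest at 42.7 and 36.9 FPKM, and the means of 6 genes of the wider list lie left of the line.

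Promoter peaks in the wider list were found at 3 of 32 genes in replicate 1 (AGPAT5, MGLL and PLPP3) and at 4 in replicate 2 (AGPAT5, CTDNEP1, GPAT4 and PNPLA2). Of all 19659 protein-coding genes, 5.49% had one in replicate 1, 14.0% in replicate 2 and 1.79% in both. Of the replicate 2 peaks, that of PNPLA2 lies near an internal start at 88.5% of the gene length, with 40.4% of it in the 3′ untranslated region, and that of GPAT4 is wholly exonic at 44.9% of the gene length. Both CTDNEP1 peaks are wholly exonic. The peak at 94.5% of the gene length has 90.7% of it in the 3′ untranslated region, and the peak at 12.1% also lies over an exon of ELP5. AGPAT5 was the only gene with a promoter peak in each replicate, and its peaks overlapped. Its replicate 2 peak is 96.8% exonic. Of 8 HIF1 reference genes (PLIN2, HILPDA, BNIP3, ANKRD37, CA9, PDK1, EGLN3 and VEGFA), 7 had a promoter peak in replicate 1 and 5 in replicate 2. EGLN3 had none in either. The VEGFA promoter peaks of the 2 replicates did not overlap, and those of replicate 2 were wholly exonic.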

How the data were processed

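The authors aligned the RNA-seq reads with HISAT2 and deposited StringTie 1.3.3 tables (per the file headers) with FPKM, TPM and coverage for 200401 transcripts in each of 2 libraries. For ChIP-seq the authors aligned reads to hg19 with Bowtie2 and called peaks with MACS2 in each of 2 replicates, and deposited the peak intervals, which hold no counts. A gene's level is the sum of FPKM over its transcripts. Log2 ratios have a pseudocount of 1 FPKM, and a gene counts as expressed at a mean of 1 FPKM. The RNA tables carry GRCh38 positions (4.18% of matched genes began within 1 kb of their GRCh37 start), so genes were joined to the GRCh37 annotation (GENCODE 44 mapped back) by Ensembl gene ID. A promoter is 1 kb to either side of any start, and a peak is on a gene when 1 base overlaps. Promoter sequences are from RefSeq (GRCh38.p14, 250 bases before to 50 after a start), and 7 of 10 members matched. Named genes are all members, the pathway and HIF1 reference lists and the cell type markers; the members and lists were chosen with earlier results of these data known. Some markers and 1 peak near a member, with its distance, are not reported here. No test was run, since all samples used here had 1 treatment. Alternatives covered the pseudocount, TPM, the minimum level, transcript classes, promoter width, start choice and single replicates. The code was tested on simulated data. Python 3.11.15, numpy 2.4.6, pandas 2.3.3, pysam 0.24.0, samtools 1.23.1 and matplotlib 3.10.9 were used.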

Additional observations from a re-analysis of the deposited data

How the results depend on the processing

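All 10 members kept a mean of at least 1 FPKM under every minimum, unit, transcript class and single library tried, and the family ratios kept their sign with a pseudocount of 0.1 or none, with TPM and in each library alone. With the largest single transcript of each gene, the log2 ratio of LPIN3 to LPIN1 turned to -0.26, and the others became 0.60 (LPIN2 to LPIN1), -0.26 (DGAT2 to DGAT1), -1.38 (GPAT3 to GPAM), 0.49 (AGPAT2 to AGPAT1) and -1.45 (AGPAT3 to AGPAT1). With protein-coding transcripts only, an alternative for the ratios chosen after seeing the data, they became 0.028 (LPIN3 to LPIN1), -0.44 (DGAT2 to DGAT1), -0.80 (GPAT3 to GPAM) and -1.19 (AGPAT3 to AGPAT1). Fewer transcripts enter each sum by construction; mean levels moved by more than the spread for 9 of 10 members with the largest transcript and for 8 of 10 with protein-coding transcripts, all downward. With 10 kb to either side, members with a promoter peak became 2 in replicate 1, 6 in replicate 2 and 2 in both, where 8.12%, 37.7% and 4.94% of all protein-coding genes had one. In replicate 2 the count was 0 at outermost starts (5.81% of all genes), 1 at starts of transcripts with at least 1 FPKM, and 1 with peaks under 50% exonic (1.21% of all genes). With overlapping peaks required, the count in both replicates was 0. For starts of transcripts with at least 1 FPKM and for overlapping peaks, no share of all genes is given, so these counts have no background. The cause of these differences in peak counts was not tested. No paired analysis was possible because all samples used here had the same treatment. The peak lists give no read depth, so a missing peak cannot be told apart from low depth.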

Other observations

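Among the wider pathway genes, CNEP1R1, the partner of CTDNEP1 in the lipin phosphatase, differed most between the libraries. It stood at 11.6 and 6.45 FPKM in replicates 1 and 2, a log2 ratio of -0.76, and 2.12% of expressed genes differed more. Its transcript ENST00000565556 stood at 6.63 and 1.52 FPKM. CDS2, which turns phosphatidate into CDP-diacylglycerol, stood at 11.7 and 11.6 FPKM. ACSL4 was the highest acyl-CoA synthetase at 28.8 and 32.8 FPKM, and ACSL6 was below 0.01 FPKM in both libraries. GPAT2 stood at 32.3 and 31.5 FPKM and GPAT4 at 16.9 and 17.8 FPKM.

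MGLL, which breaks monoacylglycerol into glycerol and fatty acid, stood at 36.2 and 26.3 FPKM, and at 8.78 and 6.19 FPKM on protein-coding transcripts, which leave out those that GENCODE 44 does not list. Its replicate 1 peak, chr3:127455165-127455441, lies inside the gene at 86.9% of its length and spans an internal start, whose transcript ENST00000398101 stood at 0.515 and 0.710 FPKM. The replicate 1 peak at PLPP3, a phosphatase of phosphatidate outside the lipin family, is chr1:57110886-57111303 and also lies over exon 1 of PRKAA2, a subunit of AMP-activated protein kinase. The core nearest its centre lies in the coding part of that exon, outside PLPP3. Of the PLPP3 transcripts that start in the peak, ENST00000461655 stood at 0 and 0.113 FPKM in replicates 1 and 2, and ENST00000476206 at 0.080 and 0 FPKM. ENST00000371250, from a start outside the peak, gave 91.3% and 89.1% of PLPP3. The core nearest each centre is shown with 12 bases to either side, GRCh37, plus strand, 5′ to 3′, since these are 2 of the 3 genes of the wider list with a promoter peak in replicate 1. The windows are chr3:127455275-127455303 (MGLL) and chr1:57111095-57111123 (PLPP3), and capitals mark the core, which in MGLL is part of CACGTG.
MGLL core: cctagagagaacACGTGagaaatggctcc
PLPP3 core: agatcggacactACGTGctgggcgacacg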
